A study of Oryza sativa with 12 samples.

Results

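The genes examined here build and loosen the plant cell wall: expansins (EXPA and EXPB), xyloglucan endotransglucosylase/hydrolases (XTH), cellulose synthases (CESA) and cellulose synthase-like genes (CSL). They were chosen by name, as the genes whose name in the deposited comparison table of the PIP2-1 experiment holds one of these family names followed by a digit or letter. This gave 110 of the 38978 genes in the count table: 26 EXPA, 15 EXPB, 26 XTH, 10 CESA and 33 CSL genes. The CSL genes comprised 10 CSLA, 6 CSLC, 4 CSLD, 3 CSLE, 7 CSLF and 3 CSLH genes. The name rule uses no measured value, although earlier results of these data were known when the genes were chosen.

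A growing plant cell is held by cellulose fibrils tied together by matrix polysaccharides, and it enlarges when water uptake stretches that wall. Cellulose synthases work at the plasma membrane in complexes of several CESA proteins, with different sets for primary walls of growing cells and secondary walls of vascular and supporting tissue. The CSL proteins make backbones of matrix polysaccharides, among them mixed-linkage glucan (CSLF and CSLH), a polymer typical of grass walls, xyloglucan (CSLC) and mannans (CSLA). XTH enzymes cut and rejoin xyloglucan chains, and expansins loosen the wall without cutting it.

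RNA sequencing was done on leaves of the indica rice variety Pusa Basmati-1, 2.5 months after regenerated plants had been moved to a greenhouse kept at 24 °C and 70% humidity with 16 h light and 8 h dark. There were 6 groups of 2 libraries. PIP2-1 OE carried a Myc-tagged OsPIP2-1 and PIP2-7 OE a FLAG-tagged OsPIP2-7, both driven by the maize ubiquitin promoter, which is active in most tissues. PIP2-1 KO and PIP2-7 KO were CRISPR-Cas9 knockouts of the same aquaporin genes, free of T-DNA, and each pair of lines had its own wild type, PIP2-1 WT and PIP2-7 WT. The labels do not say how many lines or plants stand behind a group, nor whether its 2 libraries are from different plants. The p-values therefore rest on the spread of library pairs alone, and that spread may be technical.

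Library totals ran between 24636211 and 40666127 counts. OsPIP2-1 had 1927 and 1875 CPM (the read count relative to library size, TMM-scaled) in PIP2-1 OE, 135 and 141 CPM in PIP2-1 KO, and 132 and 133 CPM in PIP2-1 WT, so its transcript level was not lower in its knockout. OsPIP2-7 had 1760 and 1656 CPM in PIP2-7 OE, 160.4 and 156 CPM in PIP2-7 KO, and 683 and 692 CPM in PIP2-7 WT. In the PIP2-1 experiment OsPIP2-7 had 292 and 295 CPM in OE, 935 and 990 CPM in KO, and 338 and 336 CPM in WT. It was thus also raised in PIP2-1 KO (log2 change 1.51, edgeR adjusted p = 1.15e-28). PIP2-7 WT was above PIP2-1 WT in OsPIP2-7 by 1.03 (edgeR adjusted p = 9.14e-34). OsPIP2-1 had 116 to 153 CPM in the libraries of the PIP2-7 experiment. The tissue label was checked with 7 leaf photosynthesis genes, which summed to between 13668 and 40994 CPM per library, against under 1 CPM for 4 floral genes and 6.63 to 12.8 CPM for 5 root genes. The wild types were not alike: of 24556 genes tested, 56.6% differed between PIP2-7 WT and PIP2-1 WT (edgeR, adjusted p under 0.05). Values against the WT pair of the other experiment are therefore given where they end or turn a call, and log2 changes are against a line's own WT unless another is named.

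Most wall genes were at a low level in these leaves. Of the 110 genes, 52 averaged under 0.1 CPM over the 12 libraries, 32 averaged over 1 CPM, and 20 reached at least 5 CPM. OsCesA10, OsEXPA19, EXPA26 and OsXTH8 had 0 counts in every library. The filter on low counts left 48 of the 110 for tests in the PIP2-1 experiment, 45 in the PIP2-7 experiment and 52 in the fit of all 12 libraries. By family, 9 of 10 CESA and 20 of 33 CSL genes were tested in each experiment, against 3 and 2 of 26 EXPA, 4 and 3 of 15 EXPB and 12 and 11 of 26 XTH genes (PIP2-1 and PIP2-7 experiments).

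Levels between genes were compared per kilobase of exon. OsCslE6 was highest, with 136 CPM per kilobase over all libraries, followed by OsCslH3 with 73.3, OsCslE1 with 39.1, OsCslA5 with 15.7 and OsCslH1 with 15 CPM per kilobase. The highest XTH gene, OsXTH12, had 6.31, the highest CESA gene, OsCesA3, 4.41, and the highest expansin, EXPA10, 2.29 CPM per kilobase. The 110 genes together took between 0.0615% and 0.155% of a library's counts, and OsCslE6, OsCslH3 and OsCslE1 alone held 63.8% to 83.7% of that share. Without those 3 genes the share was 0.0264% and 0.0249% in PIP2-1 OE, 0.0377% and 0.0374% in PIP2-1 KO, and 0.0237% and 0.0248% in PIP2-1 WT. It was 0.0209% and 0.0215% in PIP2-7 OE, 0.0196% and 0.0202% in PIP2-7 KO, and 0.0214% and 0.0218% in PIP2-7 WT. PIP2-1 KO thus had the highest share of the less abundant wall genes, and PIP2-1 OE the highest share of all 110. These shares are not TMM-scaled. In TMM-scaled CPM per kilobase the 110 genes summed to 540 and 539 in PIP2-1 OE, 464 and 467 in PIP2-7 WT, and 414 and 410 in PIP2-1 KO. The other groups had 223 to 277.

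**Figure D1:**
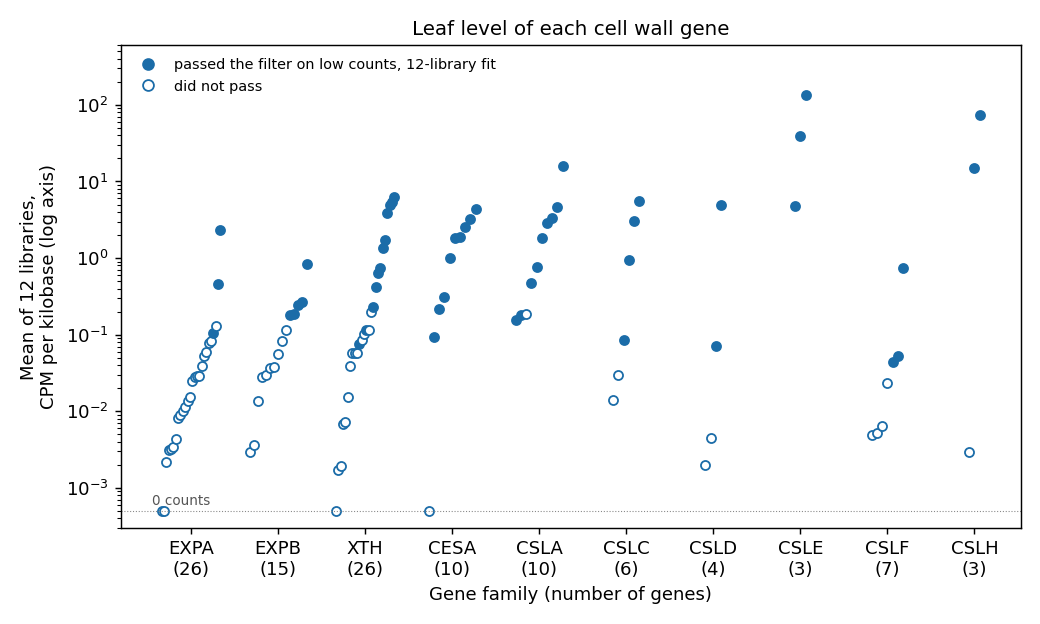
Mean of the 12 libraries in CPM per kilobase of exon (log axis) for each of the 110 wall genes, by family. Filled circles passed the filter on low counts in the fit of all libraries (52 genes), open circles did not, and the dotted line marks the 4 genes with 0 counts. CSLE and CSLH hold the 3 highest genes, and most expansins lie under 0.1.

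In PIP2-1 OE against PIP2-1 WT, 17 of the 48 wall genes tested rose and 9 fell, a called share of 54.2% beside 44.1% of all genes. In PIP2-1 KO against PIP2-1 WT, 23 rose and 7 fell of 48, 62.5% beside 62.4% of all genes. In PIP2-7 OE against PIP2-7 WT, 12 rose and 20 fell of 45, 71.1% beside 67.1% of all genes. In PIP2-7 KO against PIP2-7 WT, 8 rose and 19 fell of 45, 60% beside 63.4% of all genes. Wall genes were thus called about as often as other genes. Among all genes the called ones were split nearly evenly, with 23.2% higher and 20.9% lower in PIP2-1 OE, 30.5% higher and 31.9% lower in PIP2-1 KO, 33.4% higher and 33.7% lower in PIP2-7 OE, and 32.1% higher and 31.3% lower in PIP2-7 KO. The median log2 change of the wall genes tested was 0.11 in PIP2-1 OE, 0.36 in PIP2-1 KO, -0.15 in PIP2-7 OE and -0.21 in PIP2-7 KO, beside medians of all genes between -0.01 and 0.00. In bulk leaf RNA, fewer cells of a type and less RNA per cell cannot be told apart.

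The photosynthesis genes moved the same way as the majority of called wall genes. In PIP2-1 OE 6 of the 7 rose and 0 fell, with summed levels of 23717 and 23512 CPM, and in PIP2-1 KO 7 rose, with 37792 and 40994 CPM, against 15740 and 15115 CPM in PIP2-1 WT. In PIP2-7 OE 2 rose and 5 fell, with 13814 and 13668 CPM, and in PIP2-7 KO 1 rose and 5 fell, with 16912 and 16713 CPM, against 28962 and 29727 CPM in PIP2-7 WT. Between the wild types 5 were higher and 2 lower in PIP2-7 WT. Their part in the changes of the wall genes was not tested.

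**Figure D2:**
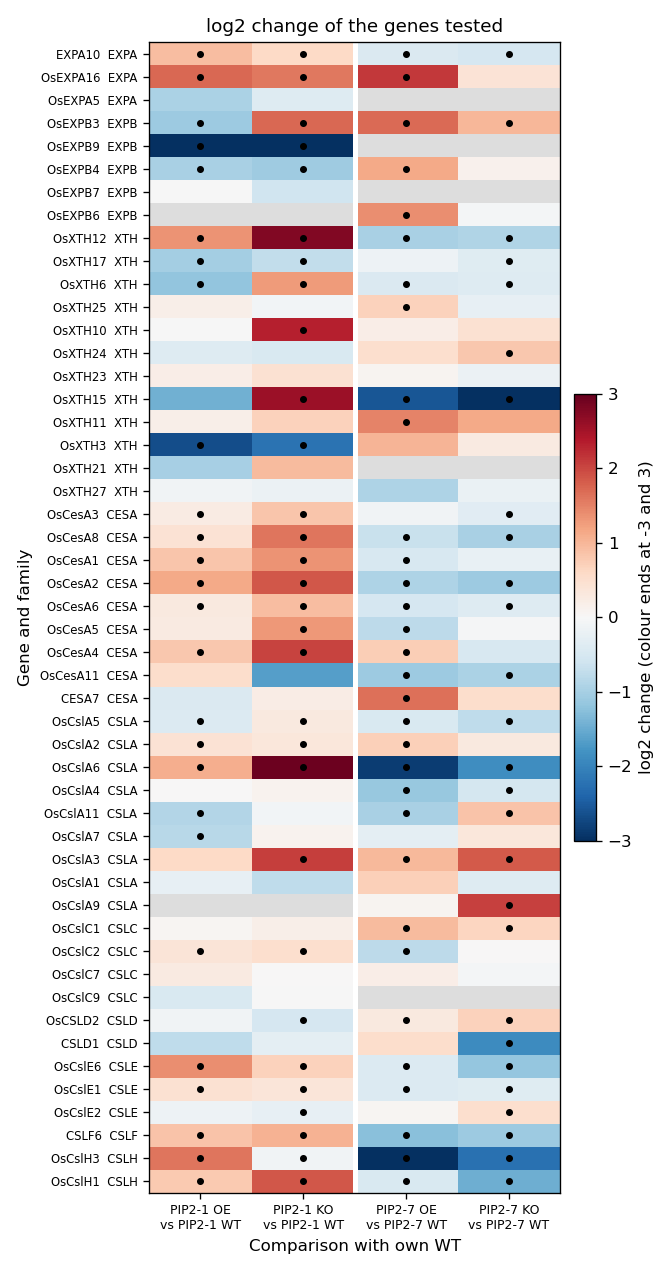
Colour gives the log2 change of each wall gene tested against its own WT in the 4 lines, by family and, within a family, by falling mean level. Black dots mark adjusted p under 0.05 (edgeR), grey cells were not tested, and colours end at -3 and 3. The CESA rows are mostly red on the left and mostly blue on the right.

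Cellulose synthase genes of the primary wall rose in both PIP2-1 lines and mostly fell in both PIP2-7 lines. OsCesA1, OsCesA3 and OsCesA8 encode the core subunits of the primary wall complex in rice. OsCesA1 had 14.1 and 12.5 CPM in PIP2-1 OE, 18.8 and 19.5 CPM in PIP2-1 KO, and 6.90 and 7.87 CPM in PIP2-1 WT. Every OE and KO library lay above both WT libraries, and the log2 changes were 0.84 in OE (SE 0.10, adjusted p = 2.01e-08) and 1.36 in KO (SE 0.10, adjusted p = 5.26e-14). In the other experiment it had 5.54 and 5.78 CPM in PIP2-7 OE, 6.53 and 6.89 CPM in PIP2-7 KO, and 7.66 and 7.85 CPM in PIP2-7 WT. The fall in PIP2-7 OE passed the test (-0.47, SE 0.12, adjusted p = 0.000525), while the value in PIP2-7 KO was -0.21 (adjusted p = 0.105). The wild types themselves did not differ detectably in OsCesA1 (log2 difference 0.06, SE 0.11, adjusted p = 0.689), and its 3 called changes were also called against the other WT pair.

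OsCesA8 had 12.9 and 12.6 CPM in PIP2-1 OE, 30.6 and 27.2 CPM in PIP2-1 KO, and 8.15 and 10.5 CPM in PIP2-1 WT. It had 7.54 and 7.47 CPM in PIP2-7 OE, 5.44 and 6.62 CPM in PIP2-7 KO, and 11.8 and 11.9 CPM in PIP2-7 WT. No group overlapped its WT, and PIP2-1 KO was far above every other group. The log2 changes were 0.42 in PIP2-1 OE (SE 0.10, adjusted p = 0.001), 1.61 in PIP2-1 KO (SE 0.10, adjusted p = 2.75e-16), -0.68 in PIP2-7 OE (SE 0.11, adjusted p = 3.3e-07) and -0.98 in PIP2-7 KO (SE 0.11, adjusted p = 1.74e-10). The rise in PIP2-1 OE was not called against the other WT pair (0.11) or without PIP2-1 WT replicate 1 (0.28).

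OsCesA3, the highest of the family, moved less: 19.5 and 21.0 CPM in PIP2-1 OE and 29.9 and 30.6 CPM in PIP2-1 KO, against 18 and 16.2 CPM in PIP2-1 WT. Its rise was 0.25 in OE (SE 0.08, adjusted p = 0.00925) and 0.83 in KO (SE 0.08, adjusted p = 1.86e-11) on the log2 scale. The small rise in OE was lost without PIP2-1 WT replicate 2 (0.17) or PIP2-1 OE replicate 2 (0.20). In the PIP2-7 experiment it had 16.1 CPM in both OE libraries, 13.4 and 13.6 CPM in KO, and 17.1 CPM in both WT libraries, a fall of 0.35 in KO (SE 0.08, adjusted p = 0.000243). The value in PIP2-7 OE was -0.11 (adjusted p = 0.206).

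OsCesA2, OsCesA5 and OsCesA6 are further CESA genes outside the secondary wall set. OsCesA2 and OsCesA6 changed in all 4 lines and OsCesA5 in only 2 of them. OsCesA2 had 10.7 and 10.03 CPM in PIP2-1 OE, 18.2 and 16.2 CPM in PIP2-1 KO, and 5.12 and 4.43 CPM in PIP2-1 WT, with log2 changes of 1.13 in OE (SE 0.12, adjusted p = 5.76e-10) and 1.87 in KO (SE 0.12, adjusted p = 2.15e-16). It had 4.08 and 4.15 CPM in PIP2-7 OE, 3.54 and 3.73 CPM in PIP2-7 KO, and 7.6 and 7.73 CPM in PIP2-7 WT, with changes of -0.92 (SE 0.13) and -1.08 (SE 0.13). In each PIP2-7 line this was the largest fall of a CESA gene above 1 CPM, but PIP2-7 WT was itself above PIP2-1 WT by 0.70 (adjusted p = 4.58e-06), and against PIP2-1 WT the values were -0.20 in PIP2-7 OE, not called, and -0.38 in PIP2-7 KO. OsCesA5 rose in PIP2-1 KO (8.53 and 7.58 CPM, against 3.18 and 3.34 CPM in PIP2-1 WT; log2 change 1.30, adjusted p = 2.48e-09) and fell in PIP2-7 OE (2.2 and 2.06 CPM, against 3.75 and 3.43 CPM in PIP2-7 WT; -0.77, adjusted p = 0.00023). Its values in PIP2-1 OE (0.28, adjusted p = 0.168) and PIP2-7 KO (-0.03, adjusted p = 0.896) did not pass. OsCesA6 changed by 0.29 in PIP2-1 OE, 0.93 in PIP2-1 KO, -0.50 in PIP2-7 OE and -0.39 in PIP2-7 KO. Its rise in PIP2-1 OE was at the edge of the threshold (adjusted p = 0.0409) and was not called with any 1 of the 4 libraries left out (0.26 to 0.32) or against PIP2-7 WT (0.18), and its fall in PIP2-7 KO was not called against PIP2-1 WT (-0.28).

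**Figure D3:**
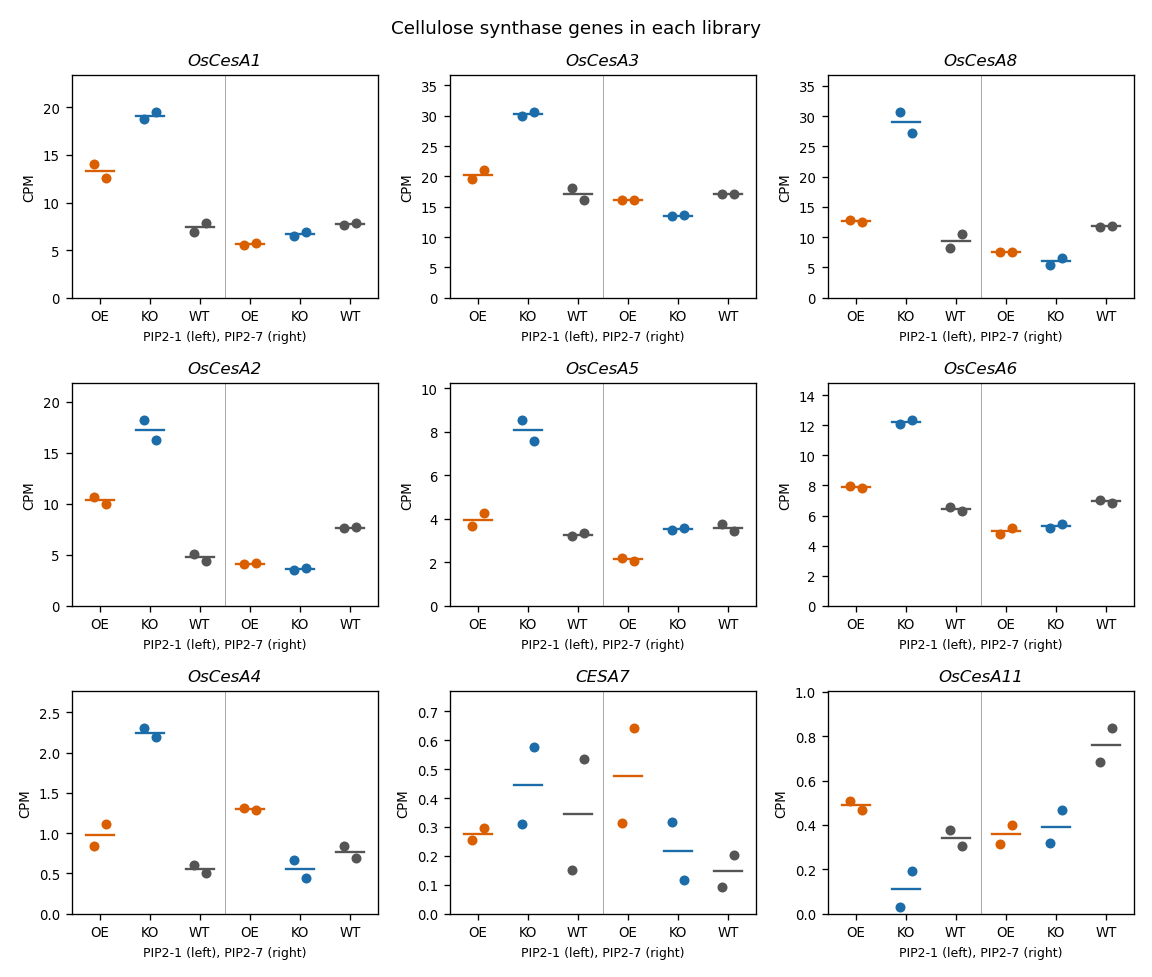
CPM of the 9 CESA genes tested in each of the 12 libraries (points) with the mean of the 2 libraries (bar), OE, KO and WT of the PIP2-1 experiment to the left of the line and of the PIP2-7 experiment to its right. In 7 of the 9 panels PIP2-1 KO is the highest group, as for OsCesA8 with 30.6 and 27.2 CPM.

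The secondary wall synthases OsCesA4 and CESA7 were scarce, and CesA9 was not analysed here. OsCesA4 had 0.837 and 1.11 CPM in PIP2-1 OE, 2.30 and 2.19 CPM in PIP2-1 KO, and 0.607 and 0.510 CPM in PIP2-1 WT. The rise in PIP2-1 KO was 2.02 (SE 0.31, adjusted p = 8.34e-07). Those in PIP2-1 OE (0.82, adjusted p = 0.0498) and in PIP2-7 OE (0.74, adjusted p = 0.0409) were not called when any 1 of their 4 libraries was left out (0.60 to 1.01 and 0.60 to 0.88), and against PIP2-7 WT the PIP2-1 OE value was 0.35, not called. CESA7 stayed under 1 CPM, with a single call in PIP2-7 OE (0.314 and 0.642 CPM, against 0.0930 and 0.202 CPM in PIP2-7 WT; 1.65, adjusted p = 0.0178). That call was lost against PIP2-1 WT (0.38), without PIP2-7 WT replicate 1 (1.21) and without PIP2-7 OE replicate 2 (1.03). Beside them stand 18 other genes of vascular secondary walls, of which 10 were tested in the PIP2-1 experiment and 9 in the PIP2-7 experiment. In PIP2-1 OE 3 rose and 2 fell, in PIP2-1 KO 2 rose and 2 fell, in PIP2-7 OE 3 rose and 3 fell, and in PIP2-7 KO 6 rose and 1 fell, with summed levels of 298 to 468 CPM per library over the 18. Of all genes tested, 44.1%, 62.4%, 67.1% and 63.4% were called in these comparisons, in the same order. The sum over the 18 was 445 and 428 CPM in PIP2-1 OE, 324 and 316 CPM in PIP2-1 KO, and 397 and 408 CPM in PIP2-1 WT. It was 355 and 349 CPM in PIP2-7 OE, 468 and 457 CPM in PIP2-7 KO, and 301 and 298 CPM in PIP2-7 WT. In PIP2-1 KO the sum was thus below WT, while OsCesA4 rose.

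OsCesA11 was also rare. It was lower in PIP2-7 OE (0.314 and 0.401 CPM) and PIP2-7 KO (0.317 and 0.467 CPM) than in PIP2-7 WT (0.682 and 0.837 CPM), by -1.10 and -0.96 on the log2 scale. The fall in KO was not called with any 1 library left out (-1.26 to -0.71), that in OE was lost without PIP2-7 WT replicate 2, PIP2-7 OE replicate 1 or PIP2-7 OE replicate 2 (-1.29 to -0.94), and against PIP2-1 WT the values turned to 0.09 and 0.21, neither called. Across the 9 CESA genes tested, 6 rose and 0 fell in PIP2-1 OE (median log2 change 0.42), 7 rose and 0 fell in PIP2-1 KO (1.30), 2 rose and 6 fell in PIP2-7 OE (-0.50), and 0 rose and 5 fell in PIP2-7 KO (-0.39). The called shares were 66.7%, 77.8%, 88.9% and 55.6%, beside 44.1%, 62.4%, 67.1% and 63.4% of all genes. These counts include the calls described above as lost with a library left out or against the other WT pair. Of the 7 rises in PIP2-1 KO, all were called against both WT pairs. The authors' deposited table has the opposite sign for 4 of the 6 falls in PIP2-7 OE, none of them significant there, with log2 changes of 0.20 for OsCesA1, 0.50 for OsCesA5, 0.14 for OsCesA6 and 0.07 for OsCesA8. It also has -0.12, not significant, for the rise of OsCesA3 in PIP2-1 OE.

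The CSLF and CSLH genes that passed the filter in both experiments, OsCslH3, OsCslH1 and CSLF6, were called in all 4 lines, and the largest of these changes was that of OsCslH3 in PIP2-7 OE. OsCslH3 had 345 and 350.4 CPM in PIP2-1 OE, 103 and 109 CPM in PIP2-1 KO, and 112 and 116 CPM in PIP2-1 WT. It had 24.4 and 21.3 CPM in PIP2-7 OE, 82.1 and 78.0 CPM in PIP2-7 KO, and 379 and 372 CPM in PIP2-7 WT. PIP2-7 OE was lowest of all groups, and PIP2-1 OE stood close to PIP2-7 WT. Against its own WT the gene changed by 1.60 in PIP2-1 OE (SE 0.04, adjusted p = 6.83e-28), -4.06 in PIP2-7 OE (SE 0.04, adjusted p = 1.32e-47) and -2.24 in PIP2-7 KO (SE 0.04, adjusted p = 2.38e-40). The wild types differed by 1.71 (SE 0.04, adjusted p = 3.97e-40), so that against PIP2-7 WT the value in PIP2-1 OE turned to -0.11 (called), while against PIP2-1 WT those in PIP2-7 OE and KO were -2.32 and -0.51, both called. The small fall in PIP2-1 KO, -0.11 (adjusted p = 0.0174), was lost without PIP2-1 WT replicate 2 (-0.09) or PIP2-1 KO replicate 1 (-0.07) and was -1.83 against PIP2-7 WT.

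OsCslH1, of the same subfamily, had 43.0 and 38.8 CPM in PIP2-1 OE, 86.6 and 86.8 CPM in PIP2-1 KO, and 23.3 and 24.3 CPM in PIP2-1 WT. Here the knockout, not the overexpression line, was highest, with log2 changes of 0.78 in OE (SE 0.06, adjusted p = 4.32e-13) and 1.86 in KO (SE 0.06, adjusted p = 5.64e-25). In the other experiment it had 31.3 and 31.1 CPM in OE, 14.7 and 16.1 CPM in KO, and 41.9 and 42.3 CPM in WT, with changes of -0.45 (SE 0.06, adjusted p = 2.6e-09) and -1.46 (SE 0.06, adjusted p = 4.11e-24). The knockout was again the more distant line. The knockout calls held against both WT pairs (1.04 for PIP2-1 KO against PIP2-7 WT and -0.63 for PIP2-7 KO against PIP2-1 WT). The OE values turned to -0.04, not called, for PIP2-1 OE and 0.39, called, for PIP2-7 OE.

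CSLF6 encodes the main mixed-linkage glucan synthase of rice and was the only one of 7 CSLF genes to pass the filter in either experiment. It had 4.90 and 4.25 CPM in PIP2-1 OE, 4.95 and 5.54 CPM in PIP2-1 KO, and 2.65 and 2.42 CPM in PIP2-1 WT, rises of 0.86 (SE 0.17, adjusted p = 7.3e-05) and 1.05 (SE 0.17, adjusted p = 2.32e-06). It had 1.86 and 2.14 CPM in PIP2-7 OE, 2.45 and 1.95 CPM in PIP2-7 KO, and 4.31 and 5.05 CPM in PIP2-7 WT, falls of 1.25 (SE 0.18, adjusted p = 8.19e-08) and 1.09 (SE 0.18, adjusted p = 1.08e-06). The levels formed a high set (PIP2-1 OE, PIP2-1 KO and PIP2-7 WT) and a low set (PIP2-7 OE, PIP2-7 KO and PIP2-1 WT). Against the other WT pair none of the 4 values was called: -0.04 for PIP2-1 OE, 0.16 for PIP2-1 KO, -0.33 for PIP2-7 OE and -0.19 for PIP2-7 KO.

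The CSLE genes, whose polysaccharide product is not settled, were the most abundant. OsCslE6 (Os09g0478300, chromosome 9, 18316004 to 18322383, minus strand, IRGSP-1.0) and OsCslE1 (Os09g0478100, chromosome 9, 18307890 to 18314231, minus strand) are neighbours with 8 exons each. Reads that aligned to more than 1 place were counted at each of them, so the counts of these neighbours may share reads. OsCslE6 had 819.9 and 822 CPM in PIP2-1 OE, 522 and 489 CPM in PIP2-1 KO, and 307 and 316 CPM in PIP2-1 WT, rises of 1.4 (SE 0.04, adjusted p = 5.12e-27) and 0.70 (SE 0.04, adjusted p = 2.15e-18). It had 375 and 374 CPM in PIP2-7 OE, 222 CPM in both PIP2-7 KO libraries, and 491 and 495 CPM in PIP2-7 WT, changes of -0.42 (SE 0.03, adjusted p = 6.73e-18) and -1.16 (SE 0.03, adjusted p = 6.21e-34). In both experiments the OE line was above the KO line, by 0.70 (SE 0.04, adjusted p = 1.87e-18) and 0.74 (SE 0.03, adjusted p = 4.29e-26), a comparison that needs no WT. Against the other WT pair the PIP2-1 OE rise (0.74) and the PIP2-7 KO fall (-0.49) were still called, the PIP2-1 KO value was 0.04, not called, and the PIP2-7 OE value turned to 0.26, called.

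OsCslE1 moved with its neighbour against its own WT but by less, with 101 and 106 CPM in PIP2-1 OE, 98.3 and 96.3 CPM in PIP2-1 KO, and 74.9 and 76.2 CPM in PIP2-1 WT. The PIP2-7 experiment gave 98.6 and 98.0 CPM in OE, 98.4 and 102 CPM in KO, and 128 and 131 CPM in WT. The 4 lines all lay between 96.3 and 106 CPM, and the wild types lay on either side of them. The log2 changes against own WT were 0.45, 0.36, -0.42 and -0.37 (PIP2-1 OE, PIP2-1 KO, PIP2-7 OE, PIP2-7 KO; largest adjusted p = 8.43e-09), and against the other WT pair -0.32, -0.41, 0.38 and 0.41, all called. For this gene the sign of every change thus depended on which WT pair was used. The remaining member, OsCslE2, was less abundant (13.7 to 20.6 CPM) and went the other way: 14.7 and 16.1 CPM in PIP2-1 KO against 17.3 and 18.8 CPM in PIP2-1 WT, and 19.9 and 20.6 CPM in PIP2-7 KO against 13.7 and 14.6 CPM in PIP2-7 WT. The rise of 0.51 in PIP2-7 KO (SE 0.08, adjusted p = 2.7e-07) was 0.16 against PIP2-1 WT, not called. The fall of 0.24 in PIP2-1 KO (adjusted p = 0.0186) was lost without PIP2-1 WT replicate 2 (-0.17) or PIP2-1 KO replicate 1 (-0.17) and was 0.12 against PIP2-7 WT, not called.

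**Figure D4:**
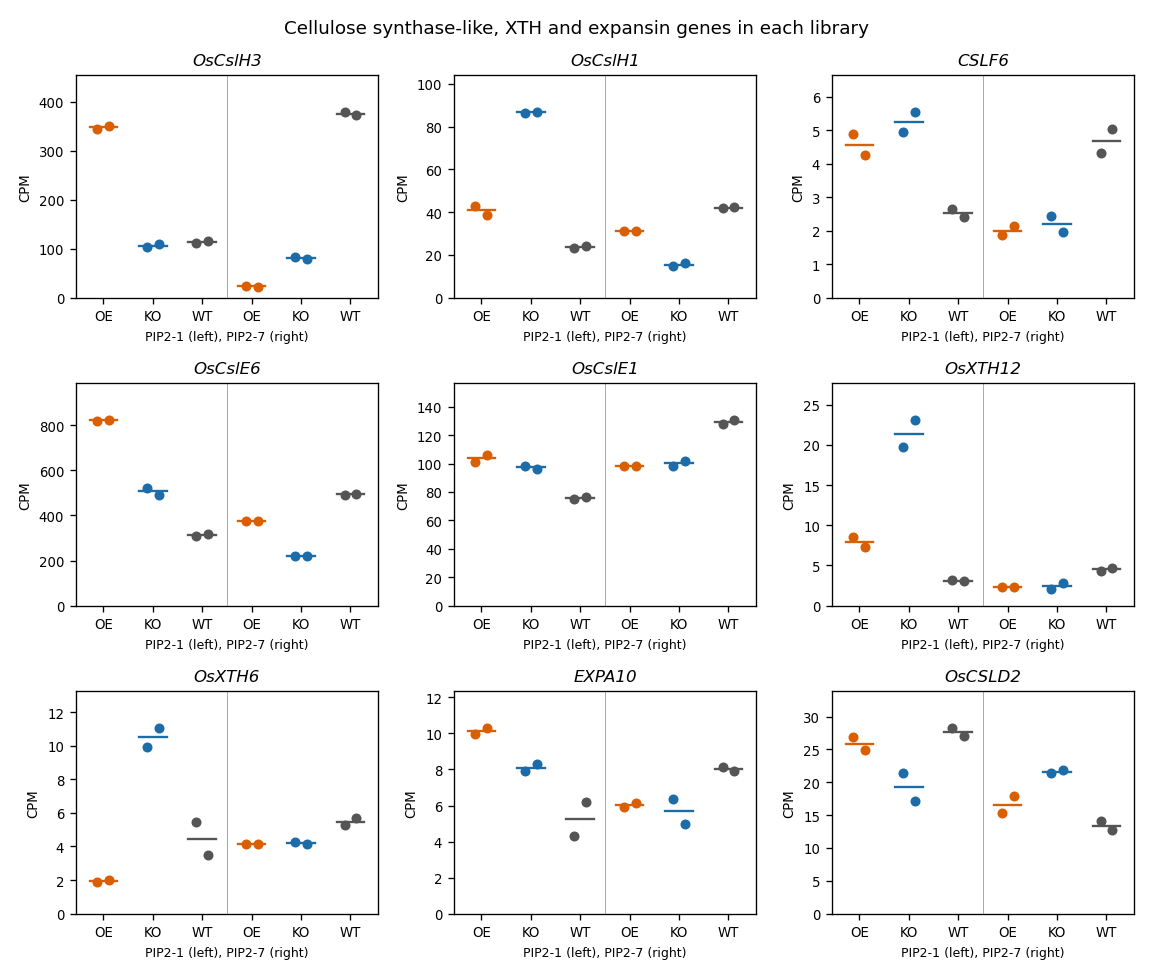
CPM of 9 CSL, XTH and expansin genes in each library (points) with the mean of the 2 libraries (bar), OE, KO and WT of the PIP2-1 experiment to the left of the line and of the PIP2-7 experiment to its right. OsCslH3 falls to 24.4 and 21.3 CPM in PIP2-7 OE, and the 4 OE and KO groups of OsCslE1 lie between its WT pairs.

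The CSLA genes, of the family of mannan synthases, showed no common direction. Of the 8 tested in the PIP2-1 experiment, 2 rose and 3 fell in OE, and 4 rose and 0 fell in KO. Of the 9 tested in the PIP2-7 experiment, 2 rose and 4 fell in OE, and 3 rose and 3 fell in KO. The called shares were 62.5%, 50%, 66.7% and 66.7% in this order, beside 44.1%, 62.4%, 67.1% and 63.4% of all genes. OsCslA5, the most abundant, had 24.3 and 22.8 CPM in PIP2-1 OE, 38.1 and 39.0 CPM in PIP2-1 KO, and 29.4 and 32.8 CPM in PIP2-1 WT. Its OE line was below and its KO line above WT, by -0.41 (SE 0.07, adjusted p = 7e-06) and 0.30 (SE 0.07, adjusted p = 0.000231), the second turning to -0.09 against PIP2-7 WT, not called. The PIP2-7 experiment gave 32.1 and 28.6 CPM in OE, 24.4 and 24.5 CPM in KO, and 40.8 and 41.4 CPM in WT. Both lines fell, by 0.46 (SE 0.06, adjusted p = 3.25e-09) and 0.76 (SE 0.06, adjusted p = 7.26e-15), and against PIP2-1 WT the values were -0.04, not called, and -0.35, called.

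The annotated OsCslA6 locus (chromosome 2, 31228398 to 31228830) is much shorter than that of OsCslA5 (chromosome 3, 14926417 to 14930396), and its counts cover that stretch only. OsCslA6 had the largest rise of any wall gene in PIP2-1 KO, 2.94 on the log2 scale (SE 0.30, adjusted p = 9.85e-11). It had 1.12 and 0.963 CPM in PIP2-1 OE, 4.27 and 3.15 CPM in PIP2-1 KO, and 0.341 and 0.586 CPM in PIP2-1 WT. In the PIP2-7 experiment it had 0.343 and 0.321 CPM in OE, 0.461 and 0.846 CPM in KO, and 2.29 and 2.45 CPM in WT, changes of -2.85 (SE 0.33) and -1.86 (SE 0.30). Its WT pairs differed by 2.29 (adjusted p = 1.27e-08). Against the other WT pair it stood at -1.19 in PIP2-1 OE (called), 0.65 in PIP2-1 KO (called), -0.54 in PIP2-7 OE and 0.43 in PIP2-7 KO (neither called), and its rise of 1.10 in PIP2-1 OE was lost without PIP2-1 WT replicate 1 (0.82) or PIP2-1 OE replicate 1 (0.99). OsCslA4 fell in the PIP2-7 lines (2.86 and 3.61 CPM in OE and 4.81 and 4.93 CPM in KO, against 6.95 and 7.01 CPM in WT), by 1.13 (SE 0.14, adjusted p = 2.6e-09) and 0.53 (SE 0.13, adjusted p = 0.000708). The KO fall was -0.24 against PIP2-1 WT, not called. OsCslA2 rose in PIP2-7 OE (5.85 and 6.16 CPM, against 3.69 and 3.52 CPM in PIP2-7 WT; 0.72, SE 0.14), a call made against either WT pair. Its smaller rises in PIP2-1 OE (0.43) and PIP2-1 KO (0.35) were also called against either pair. The OE rise was lost without PIP2-1 WT replicate 1 (0.31) or PIP2-1 OE replicate 1 (0.37). The KO rise was lost without PIP2-1 WT replicate 1 (0.23) or PIP2-1 KO replicate 2 (0.25).

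OsCslA11 is the name of a pair of loci, of which Os08g0434632 was tested. It was the only wall gene called lower in PIP2-7 OE and higher in PIP2-7 KO, with 1.68 and 2.06 CPM in OE, 6.51 and 6.65 CPM in KO, and 3.01 and 4.21 CPM in WT. The log2 changes were -0.97 (adjusted p = 1.46e-05) and 0.85 (adjusted p = 5.23e-06), and against PIP2-1 WT -1.82, called, and -0.02, not called. In the PIP2-1 experiment this locus had 3.70 and 3.53 CPM in OE, 5.92 and 6.81 CPM in KO, and 6.75 and 6.57 CPM in WT. The OE line was the lowest here too (-0.88, adjusted p = 3.35e-06), although against PIP2-7 WT that value was -0.00, not called.

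Of the CSLC genes, named for xyloglucan backbone synthesis as shown in Arabidopsis, OsCslC1 rose in the PIP2-7 lines: 6.63 and 6.93 CPM in OE and 4.98 and 5.86 CPM in KO, against 3.41 and 3.46 CPM in WT. The log2 changes were 0.96 (SE 0.14, adjusted p = 7.42e-08) and 0.65 (SE 0.15, adjusted p = 0.000137), and the KO value was 0.24 against PIP2-1 WT, not called. OsCslC2 fell in PIP2-7 OE (2.40 and 3.45 CPM, against 5.21 and 4.70 CPM in PIP2-7 WT; -0.77, SE 0.16, adjusted p = 6.44e-05) and rose in PIP2-1 KO (8.44 and 7.69 CPM, against 5.35 and 5.91 CPM in PIP2-1 WT; 0.51, SE 0.13, adjusted p = 0.000944). Both changes were called against either WT pair. So was a smaller rise of OsCslC2 in PIP2-1 OE (0.38), lost without PIP2-1 WT replicate 1 (0.32) or PIP2-1 OE replicate 1 (0.30). OsCSLD2, of a subfamily known for polarised growth such as that of root hairs, had 26.9 and 24.8 CPM in PIP2-1 OE, 21.3 and 17.2 CPM in PIP2-1 KO, and 28.2 and 27.1 CPM in PIP2-1 WT. It had 15.3 and 18 CPM in PIP2-7 OE, 21.5 and 21.8 CPM in PIP2-7 KO, and 14 and 12.7 CPM in PIP2-7 WT. The levels of all 4 lines lay between those of the wild types. The calls were -0.51 in PIP2-1 KO, 0.29 in PIP2-7 OE and 0.69 in PIP2-7 KO, and each turned and was called against the other WT pair (0.53, -0.73 and -0.35). The PIP2-7 OE rise was also lost without PIP2-7 WT replicate 2 (0.21) or PIP2-7 OE replicate 2 (0.16).

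Among the XTH genes 1 rose and 3 fell of 12 in PIP2-1 OE, 4 rose and 2 fell of 12 in PIP2-1 KO, 2 rose and 3 fell of 11 in PIP2-7 OE, and 1 rose and 4 fell of 11 in PIP2-7 KO. The called shares of 33.3%, 50%, 45.5% and 45.5% were each below those of all genes, 44.1%, 62.4%, 67.1% and 63.4%. OsXTH12 (Os06g0696600, chromosome 6, 29144888 to 29146522, plus strand) had 8.58 and 7.28 CPM in PIP2-1 OE, 19.7 and 23.1 CPM in PIP2-1 KO, and 3.18 and 3.03 CPM in PIP2-1 WT. These were rises of 1.35 (SE 0.14, adjusted p = 2.6e-10) and 2.78 (SE 0.13, adjusted p = 2.51e-20), both also called against PIP2-7 WT. It had 2.28 and 2.36 CPM in PIP2-7 OE, 2.04 and 2.77 CPM in PIP2-7 KO, and 4.31 and 4.70 CPM in PIP2-7 WT, falls of 0.98 (SE 0.18, adjusted p = 5.22e-06) and 0.91 (SE 0.18, adjusted p = 1.92e-05). The KO value against PIP2-1 WT was -0.36, not called.

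OsXTH10 lies close by (Os06g0697000, chromosome 6, 29156457 to 29157883, minus strand) and had 6.63 and 6.19 CPM in PIP2-1 KO, against 1.25 and 1.30 CPM in PIP2-1 WT. Its other 8 libraries had 0.930 to 1.55 CPM. PIP2-1 KO was thus the single group in which this gene was raised (2.32, SE 0.20, adjusted p = 1e-12), and the value was 2.52 against PIP2-7 WT. OsXTH11, in the same stretch of chromosome 6, was under 1 CPM in every library, with 0.70 in PIP2-1 KO, not called. Its rise in PIP2-7 OE (0.514 and 0.696 CPM, against 0.217 and 0.202 CPM in PIP2-7 WT; 1.5, adjusted p = 0.0101) was not called against PIP2-1 WT (0.37) or without PIP2-7 WT replicate 2 (1.44) or PIP2-7 OE replicate 2 (1.26). OsXTH6 had 1.88 and 1.98 CPM in PIP2-1 OE, 9.94 and 11 CPM in PIP2-1 KO, and 5.46 and 3.46 CPM in PIP2-1 WT. The OE line was below the WT libraries and the KO line above them, and the OE minus KO difference was -2.44 (SE 0.17, adjusted p = 2.57e-14). Its falls in PIP2-7 OE (4.14 and 4.12 CPM) and PIP2-7 KO (4.26 and 4.14 CPM) from PIP2-7 WT (5.27 and 5.68 CPM) were -0.43 and -0.39. They were not called against PIP2-1 WT (-0.07 and -0.05) or without PIP2-7 WT replicate 2 (-0.38 and -0.34), and the KO fall was also lost without PIP2-7 KO replicate 2 (-0.37).

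OsXTH17 ran lower in the PIP2-1 lines, with 4.03 and 4.12 CPM in OE, 4.42 and 5.54 CPM in KO, and 8.91 and 7.72 CPM in WT. The falls were 1.02 (SE 0.14, adjusted p = 1.74e-07) and 0.74 (SE 0.14, adjusted p = 3.12e-05), and both were called against PIP2-7 WT as well. In PIP2-7 KO it had 6.10 and 4.87 CPM, against 6.79 and 7.30 CPM in PIP2-7 WT (-0.37, adjusted p = 0.0117), a call lost without PIP2-7 WT replicate 2 (-0.32) or PIP2-7 KO replicate 2 (-0.21). OsXTH25 rose in PIP2-7 OE, to 7.05 and 7.17 CPM against 4.16 and 4.47 CPM in PIP2-7 WT (0.70, SE 0.13, adjusted p = 1.25e-05). The annotated OsXTH15 locus is short (chromosome 6, 13389882 to 13390271). OsXTH15 had 0 counts in both PIP2-7 KO libraries against 39 counts in the PIP2-7 WT pair, at least 13.4-fold lower with a floor of 3 counts over the group. The fall was called against both WT pairs, but that fold is against PIP2-7 WT, whose level was the higher of the WT pairs (0.589 and 0.577 CPM, against 0.190 and 0.0510 CPM in PIP2-1 WT; 2.39, adjusted p = 0.00272). The WT difference was lost without PIP2-1 WT replicate 2 (1.60). OsXTH15 was also called lower in PIP2-7 OE (-2.57) and higher in PIP2-1 KO (2.57), neither called against the other WT pair (-0.16 and 0.19), and the rise was lost without PIP2-1 WT replicate 2 (1.79) or PIP2-1 KO replicate 2 (2.07).

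Expansins were mostly at very low levels, and few could be tested. EXPA10 was the only one above 5 CPM. It had 9.997 and 10.3 CPM in PIP2-1 OE, 7.91 and 8.31 CPM in PIP2-1 KO, and 4.28 and 6.22 CPM in PIP2-1 WT, rises of 0.92 (SE 0.13, adjusted p = 3.87e-07) and 0.59 (SE 0.14, adjusted p = 0.000413). In the PIP2-7 experiment it had 5.91 and 6.13 CPM in OE, 6.39 and 4.96 CPM in KO, and 8.13 and 7.93 CPM in WT, changes of -0.44 (SE 0.12, adjusted p = 0.00189) and -0.51 (SE 0.13, adjusted p = 0.000501). Only the PIP2-1 OE rise was called against the other WT pair (0.34), and the values there were 0.01 for PIP2-1 KO, 0.16 for PIP2-7 OE and 0.08 for PIP2-7 KO. OsEXPA16 had 0.660 and 0.568 CPM in PIP2-1 OE, 0.405 and 0.731 CPM in PIP2-1 KO, and 0.152 and 0.204 CPM in PIP2-1 WT. It had 1.37 and 1.04 CPM in PIP2-7 OE, 0.461 and 0.263 CPM in PIP2-7 KO, and 0.217 and 0.317 CPM in PIP2-7 WT. It rose in both OE lines, by 1.73 (SE 0.54, adjusted p = 0.00848) and 2.13 (SE 0.43, adjusted p = 2.69e-05), and both rises were called against either WT pair, although that in PIP2-1 OE was lost without PIP2-1 WT replicate 1 (1.57) or PIP2-1 OE replicate 1 (1.62). The rise of 1.59 in PIP2-1 KO was not called against PIP2-7 WT (1.04) or without PIP2-1 WT replicate 1 (1.43), PIP2-1 WT replicate 2 (1.85) or PIP2-1 KO replicate 2 (1.14). OsEXPA13, next by level in its family, did not pass the filter, with 0 to 0.374 CPM.

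The EXPB genes tested lie mainly in a run on chromosome 10, and near-identical copies there may share reads. In PIP2-1 OE 0 rose and 3 fell of 4, in PIP2-1 KO 1 rose and 2 fell of 4, in PIP2-7 OE 3 rose and 0 fell of 3, and in PIP2-7 KO 1 rose and 0 fell of 3. The called shares of these few genes were 75%, 75%, 100% and 33.3%, beside 44.1%, 62.4%, 67.1% and 63.4% of all genes. None of the 3 rises in PIP2-7 OE was called against PIP2-1 WT. OsEXPB3 had 0.228 and 0.617 CPM in PIP2-1 OE, 3.18 and 2.89 CPM in PIP2-1 KO, and 0.872 and 0.943 CPM in PIP2-1 WT. The rise in KO was 1.73 (SE 0.29, adjusted p = 3.14e-06) and was larger against PIP2-7 WT (3.07), while the fall in OE, -1.10 (adjusted p = 0.017), turned to 0.24 there, not called, and was lost without PIP2-1 WT replicate 2 (-1.03) or PIP2-1 OE replicate 1 (-0.56). In the PIP2-7 experiment it had 0.942 and 1.42 CPM in OE, 0.604 and 0.846 CPM in KO, and 0.310 and 0.404 CPM in WT. The rises of 1.69 in OE and 1.00 in KO were not called against PIP2-1 WT (0.38 and -0.33), and the KO rise was lost without PIP2-7 WT replicate 1, PIP2-7 WT replicate 2 or PIP2-7 KO replicate 2 (0.74 to 1.20). OsEXPB9 had 1.48 and 1.68 CPM in PIP2-1 WT and at most 0.0761 CPM in any other library. It had 0 counts in the PIP2-1 KO pair against 105 in the PIP2-1 WT pair, at least 31.0-fold lower with a floor of 3 counts over the group, but neither PIP2-1 line was called against PIP2-7 WT. OsEXPB4 had 0.533 and 0.519 CPM in PIP2-1 OE, 0.561 and 0.423 CPM in PIP2-1 KO, and 0.910 and 1.15 CPM in PIP2-1 WT. Its falls there (-0.98 and -1.06) turned to 0.67 and 0.59 against PIP2-7 WT, not called. With any 1 of the 4 libraries left out the OE fall was lost (-1.12 to -0.79), and the KO fall was lost without PIP2-1 WT replicate 2 (-0.87) or PIP2-1 KO replicate 2 (-0.89). In PIP2-7 OE it had 0.828 and 0.642 CPM, against 0.403 and 0.260 CPM in PIP2-7 WT (1.13, adjusted p = 0.0258), a rise lost without PIP2-7 WT replicate 2 (0.83) or PIP2-7 OE replicate 1 (0.93) and at -0.50 against PIP2-1 WT. OsEXPB6 had 0.457 and 0.428 CPM in PIP2-7 OE, against 0.124 and 0.202 CPM in PIP2-7 WT (1.39, adjusted p = 0.0357). That rise was 0.84 against PIP2-1 WT and was not called with any 1 of the 4 libraries left out (1.09 to 1.77).

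The overexpression and knockout lines of the same aquaporin were also compared directly, which needs no WT. In PIP2-1 OE against PIP2-1 KO, 5 of 48 wall genes were higher and 19 lower, 50% called beside 55.5% of all genes (28.7% higher and 26.8% lower). Among the CESA genes 1 was higher and 7 were lower, with a median of -0.65. OsCslH3 was the largest of the higher calls above 5 CPM (1.72, SE 0.04, adjusted p = 1.16e-28), and OsXTH6, OsXTH10 (-2.33) and OsXTH12 (-1.43) were among the lower ones. In PIP2-7 OE against PIP2-7 KO, 14 of 45 were higher and 11 lower, 55.6% called beside 58% of all genes (28.4% higher and 29.6% lower). OsCslH1 was higher in PIP2-7 OE by 1.00 (SE 0.07, adjusted p = 1.3e-17) and OsCslH3 lower by -1.83 (SE 0.05, adjusted p = 2.64e-32), so that these relatives stood in opposite order between the lines. In the PIP2-1 experiment their order was the reverse, with OsCslH1 at -1.08 in OE against KO. The genes called lower in PIP2-1 OE and higher in PIP2-1 KO were OsXTH6, OsCslA5 and OsEXPB3, and only OsCslH3 went the other way.

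Between the wild types, 14 of 52 wall genes were higher and 11 lower in PIP2-7 WT than in PIP2-1 WT, 48.1% called beside the 56.6% of all genes (28.1% higher and 28.5% lower). The genes above 5 CPM that were higher in PIP2-7 WT by most were OsCslH3 (1.71), OsCslH1 (0.82), OsCslE1 (0.77) and OsCesA2 (0.70), and OsCSLD2 was lower by most (-1.04, SE 0.09, adjusted p = 3.52e-15). Of the 26 calls in PIP2-1 OE, 13 were called in the same direction against PIP2-7 WT too and 3 in the opposite one. The same counts were 17 and 2 of 30 in PIP2-1 KO, 15 and 4 of 32 in PIP2-7 OE against PIP2-1 WT, and 11 and 2 of 27 in PIP2-7 KO. Of all genes tested, 49.4%, 46.3%, 53.1% and 48.2% were called against the other WT pair, in either direction and in the same order of lines. How many of all genes kept their direction against both pairs was not counted, so whether wall genes kept theirs more often was not tested. The rises in PIP2-1 KO that were called against both wild types numbered 15, among them 7 CESA genes, OsCslH1, OsXTH6, OsXTH10 and OsXTH12. The falls called against both in PIP2-7 KO numbered 9, among them OsCesA2, OsCesA3 and OsCesA8, OsCslE6, OsCslH1 and OsCslH3. Calls the other way that held against both wild types numbered 2 in each knockout. In PIP2-1 KO these were falls of OsXTH17 and OsCslH3. In PIP2-7 KO they were rises of OsCslA3 (1.84, and 3.28 against PIP2-1 WT) and OsCslA9 (2.06, and 2.15 against PIP2-1 WT).

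**Figure D5:**
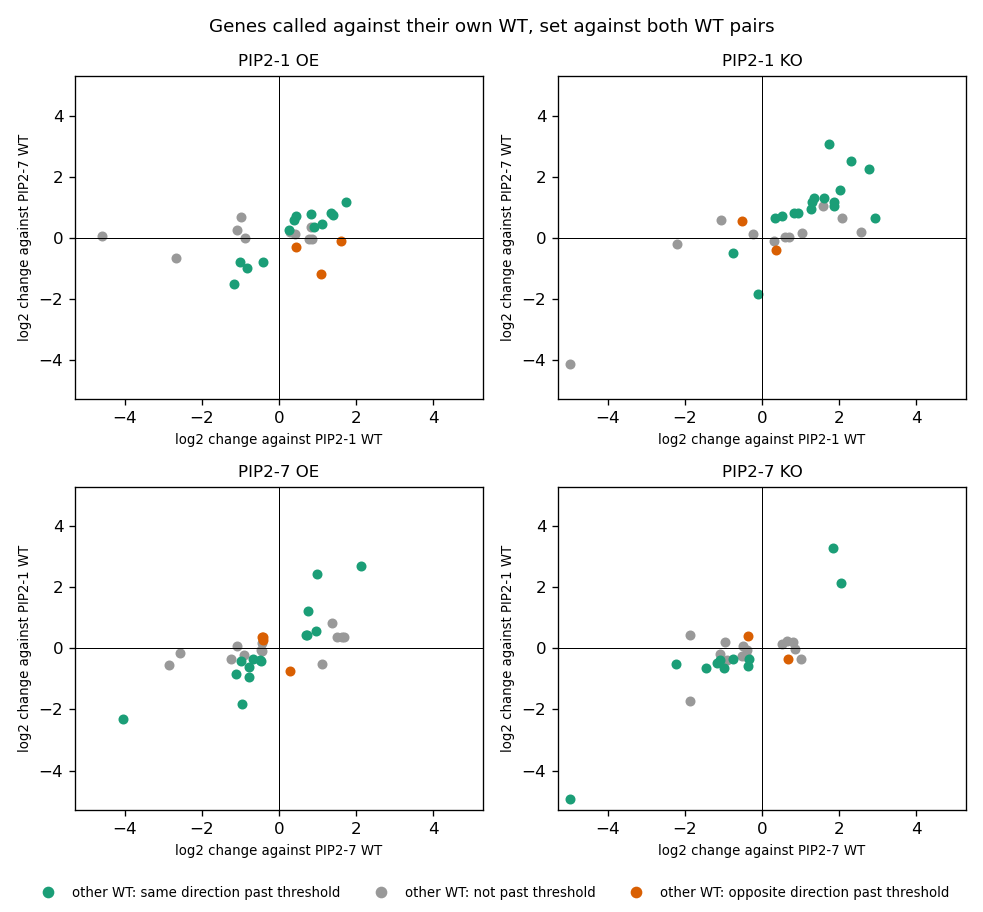
Each point is a wall gene called against its own WT pair, with its log2 change against that pair (x) and against the WT pair of the other experiment (y). Colours show whether the second value was called in the same direction, not called or called in the opposite direction, and values beyond -5 are drawn at -5. In PIP2-1 KO 17 of 30 points were called in the same direction.

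The effects of the 2 aquaporin genes were set against each other by testing the difference of their effects. For overexpression, 13 of 52 wall genes had a higher and 17 a lower effect in the PIP2-7 experiment, 57.7% called beside 62.6% of all genes (31.6% higher and 30.9% lower), and 15 of the 43 wall genes tested in both experiments were called in opposite directions against their own wild types (34.9%, beside 29% of all genes). For knockout, 8 had a higher and 21 a lower effect, 55.8% called beside 67.3% of all genes (34.6% higher and 32.8% lower), and 16 of 43 were called in opposite directions (37.2%, beside 37.5% of all genes). Among the 9 CESA genes 7 had a lower effect in PIP2-7 KO than in PIP2-1 KO and 0 a higher one (median difference -1.33). OsCslH3 had the largest difference for overexpression (-5.64, SE 0.06, adjusted p = 1.75e-55) among genes above 5 CPM, and OsXTH12 for knockout (-3.69, SE 0.21, adjusted p = 4.27e-22). Each of these differences holds the difference between the wild types in it.

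Other wall genes, chosen by name (such as pectin methylesterases, sucrose synthases and arabinogalactan proteins), numbered 110, of which 53 were tested in each experiment. In PIP2-1 OE 8 rose and 9 fell, in PIP2-1 KO 17 rose and 13 fell, in PIP2-7 OE 19 rose and 15 fell, and in PIP2-7 KO 9 rose and 12 fell. Of 119 genes of growth regulation (GRF, GIF, ARF, Aux/IAA and SAUR families), 12 rose and 18 fell of 71 in PIP2-1 OE, and 18 rose and 22 fell in PIP2-1 KO. In PIP2-7 OE 42 rose and 19 fell of 74, and in PIP2-7 KO 23 rose and 23 fell. For both lists the background is all genes tested, of which 23.2% rose and 20.9% fell in PIP2-1 OE. The shares were 30.5% and 31.9% in PIP2-1 KO, 33.4% and 33.7% in PIP2-7 OE, and 32.1% and 31.3% in PIP2-7 KO. The authors' deposited table was set beside the calls: of the 26, 30, 32 and 27 wall genes called here in PIP2-1 OE, PIP2-1 KO, PIP2-7 OE and PIP2-7 KO, it gave 15, 18, 12 and 15 as significant with the same sign and 0 with the opposite sign. Whether significant there or not, 25, 28, 28 and 26 of them had the same sign in it.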

How the data were processed

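The 12 leaf libraries were analysed from the deposited raw read counts per gene. The authors made these counts with featureCounts 1.4.0 on IRGSP-1.0 and Ensembl Plants release 52, for the reverse strand, and counted multiply aligned reads at every place, per the file headers. Trim Galore, HISAT2 and Cuffdiff 2.2.1 are named per the submitters' processing notes. The authors' deposited comparison tables hold log2 fold changes, p-values and q-values, and served here for gene names and the comparison credited to them.

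Groups were read from the sample titles. The tests used edgeR 4.0.16 under R 4.3.3: filterByExpr, TMM, a robust quasi-likelihood fit, and Benjamini-Hochberg adjustment over all genes tested, with a threshold of 0.05. An experiment's comparisons were fitted on its 6 libraries, the WT comparison and differences of effects on all 12. Levels are CPM with TMM factors over all 12 libraries, so they need not give the fitted changes exactly. An SE is the log2 change over the square root of F and is approximate. Replicates differed by more than sampling noise (chi-square per degree of freedom 2.50 to 7.69), and 1 CPM was at least 26.0 counts. Floors cover counting error only.

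The genes, lists and tests were chosen with earlier results of these data known. Named genes are, in each comparison with WT and between the WT pairs, up to 4 of the largest rises and falls with at least 5 CPM and no overlap of libraries. Also named are the 3 highest genes per family, all CESA genes, the CSLF and CSLH genes tested in both experiments, and genes that OE and KO moved in opposite directions. OsCslF2 and OsCslF8 were tested in the fit of all 12 libraries only, and their values are not given. OsXTH11, OsXTH15, OsEXPB6, OsCslA3, OsCslA6, OsCslA9 and OsCslC2 were added after their values were seen. The fits were tested on simulated counts. Alternatives were RLE scaling, no filter, DESeq2 1.42.0, a replicate block, leaving out libraries, all 12 or only 4 libraries in a fit, the other WT pair, and all 4 WT libraries together.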

Additional observations from a re-analysis of the deposited data

Results flagged for a closer look

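Of the wall genes called in opposite directions by the same change in the 2 aquaporin genes, the 6 with the smallest p for the difference of effects are given for overexpression and for knockout. Values are the effect in the PIP2-7 line minus that in the PIP2-1 line, on the log2 scale, each effect against its own WT, by edgeR over all genes. These genes were picked for opposite calls in the same libraries, so small p-values for their differences largely follow from the choice and add no support. For overexpression the differences were -5.64 for OsCslH3 (adjusted p = 1.75e-55), -2.31 for OsXTH12 (1.16e-13), -2.03 for OsCesA2 (4.19e-15), -1.80 for OsCslE6 (1.07e-38), -1.21 for OsCslH1 (1.44e-18) and -0.85 for OsCslE1 (1.28e-19). For knockout they were -3.69 for OsXTH12 (adjusted p = 4.27e-22), -3.31 for OsCslH1 (1.28e-37), -2.94 for OsCesA2 (1.5e-21), -2.58 for OsCesA8 (4.14e-22), -1.85 for OsCslE6 (3.21e-39) and -0.73 for OsCslE1 (6.48e-17). All of these are lower in the PIP2-7 line, and all 7 genes were higher in PIP2-7 WT than in PIP2-1 WT, which enters each difference. For OsCesA8 that WT difference (0.32) was not called without PIP2-1 WT replicate 1 (0.17). How much of a difference stems from the wild types was not tested.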

How the results depend on the processing

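The choice of WT mattered most. Against all 4 WT libraries as 1 group, 8, 17, 15 and 11 wall genes were called in PIP2-1 OE, PIP2-1 KO, PIP2-7 OE and PIP2-7 KO, against 26, 30, 32 and 27 with the own WT, and the share of all genes called was 8.39%, 23.1%, 30% and 22.5%, against 44.1%, 62.4%, 67.1% and 63.4%. OsCslE1 in PIP2-1 KO turned to -0.073, OsCslA6 in PIP2-1 OE to -0.45 and OsCSLD2 in PIP2-7 OE to -0.31, none called. Against the other WT pair, PIP2-1 OE values turned to -1.19 for OsCslA6, -0.11 for OsCslH3 and -0.32 for OsCslE1, all called, and to -0.036 for CSLF6, -0.041 for OsCslH1, 0.062 for OsEXPB9, 0.24 for OsEXPB3 and 0.67 for OsEXPB4, not called. PIP2-1 KO values turned to 0.53 for OsCSLD2 and -0.41 for OsCslE1, both called, and to 0.12 for OsCslE2, -0.094 for OsCslA5 and 0.59 for OsEXPB4. PIP2-7 OE values turned to -0.73 for OsCSLD2, 0.38 for OsCslE1, 0.26 for OsCslE6 and 0.39 for OsCslH1, all called, and to 0.16 for EXPA10, 0.089 for OsCesA11 and -0.50 for OsEXPB4. PIP2-7 KO values turned to -0.35 for OsCSLD2 and 0.41 for OsCslE1, both called, and to 0.43 for OsCslA6, 0.079 for EXPA10, 0.21 for OsCesA11, -0.016 for OsCslA11 (Os08g0434632) and -0.33 for OsEXPB3. The cause was not tested. DESeq2 called 16 wall genes between PIP2-7 OE and KO, against 25, and 18, 26, 24 and 21 in the comparisons with own WT. Its share of all genes called was lower too, 31% between PIP2-7 OE and KO, against 58% with edgeR. With own WT it was 22.3%, 36.7%, 38.8% and 36.2%. DESeq2 was run without the filter on low counts, so these shares are of more genes. With 1 library left out the counts were 18 to 22, 26 to 30, 26 to 31 and 22 to 26 in those comparisons, 21 to 27 and 19 to 22 for OE against KO (PIP2-1, PIP2-7), 22 to 26 between the wild types, and 26 to 30 and 26 to 32 for the differences of OE and KO effects. A lone library left in a group is assumed to vary like the other groups. Replicate numbers did not pair the libraries (correlations of same-numbered deviations -0.082 to 0.032), and with the replicate number as a block 24, 30, 32 and 26 genes were called against own WT, 24 and 24 in OE against KO, 25 between the wild types, and 30 and 28 for the differences of effects. With that block the shares of all genes called were 43%, 61.6%, 66.7% and 63.1% against own WT, and 54.6% and 57.6% in OE against KO. They were 56.2% between the wild types, and 62.1% and 66.8% for the differences of effects. RLE scaling left each count of wall genes called as it was. Genes under 1 CPM rest on few counts, and 58 of the 110 were tested in no fit.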
